A study of Mus musculus with 5 samples.

Results

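Fibrillin microfibrils are thin extracellular fibers built from fibrillin monomers, and latent TGF-beta binding proteins (LTBPs) are secreted glycoproteins of the same domain family that attach to them. Several LTBPs hold newly made TGF-beta in an inactive complex and place it in the matrix, so that microfibrils act both as scaffolds of elastic tissue and as stores of growth factor. In the eye, microfibrils form the zonular fibers that run from the nonpigmented ciliary epithelium to the lens, and they also occur in the trabecular meshwork. The genes examined here were the 4 LTBP genes Ltbp1 to Ltbp4, the fibrillins Fbn1 and Fbn2, the microfibril-associated genes Mfap2, Mfap4 and Mfap5, and Adamtsl2, whose product binds both fibrillin-1 and LTBP-1. They were taken by name, with earlier results of these data known. All 10 were found among the 56941 gene identifiers in the count table, and all 10 were among the 19713 genes tested.

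RNA was sequenced from the iridocorneal angle, the ring of drainage tissue where the cornea meets the iris, of mice aged 12 months, described as male and female. DBA/2J mice carry the loss-of-function Gpnmb allele R150X together with the b allele of Tyrp1 and develop pigment dispersion and raised intraocular pressure, and 3 DBA/2J pools were sequenced. The comparison group, called Gpnmb+ here, is DBA/2J-Gpnmb+/SjJ, in which the wild-type Gpnmb allele is restored while the Tyrp1 b allele is kept, and it had 2 pools. Both groups therefore share the Tyrp1 mutation and differ by design at Gpnmb. Each pool is described as 3 mice, although the library names list 3 animals per DBA/2J pool and 2 per Gpnmb+ pool. The dissected ring could keep remnants of iris and ciliary body. P-values measure the spread between pools, each of which already averages over animals.

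The counts on genes summed to between 43900661 and 49837758 per pool. Gpnmb, the gene that separates the strains, was counted 2042, 2234 and 1946 times in DBA/2J pools 1 to 3 but 129659 and 110568 times in Gpnmb+ pools 1 and 2, as the labels give it. Of 19713 genes tested, 0.502% were called higher in DBA/2J and 0.294% lower, a call being an edgeR adjusted p-value of at most 0.05 with a fold change of at least 1.5. The pools also differed in sex-linked RNA, since the summed level of 4 Y-linked genes was 66.2 to 199 CPM (counts per 1e6 counts) in DBA/2J and 0.0394 to 0.102 CPM in Gpnmb+. Xist, transcribed from the inactive X chromosome, had 13.4, 0 and 54.2 CPM in the DBA/2J pools and 155 and 187 CPM in the Gpnmb+ pools. The 2 Gpnmb+ libraries thus held almost no Y-linked RNA, which goes against a description of both sexes, and sex and genotype cannot be told apart in these pools. All levels below are CPM scaled by edgeR's TMM method, and a log2 fold change above 0 means a higher level in DBA/2J. In bulk tissue, fewer cells of a type and less RNA per cell cannot be told apart.

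The LTBP genes lie on separate chromosomes of GRCm39. Ltbp1 spans chr17:75312519-75699507 on the plus strand, Ltbp2 chr12:84829986-84923306 on the minus strand, Ltbp3 chr19:5790932-5808669 on the plus strand and Ltbp4 chr7:27004086-27037117 on the minus strand. Their RNA moved to different extents between the genotypes, so upstream sequences are shown for the 3 that have an entry outside the annotated gene. RefSeq promoter entries (build GRCm38.p6) were present for 7 of the 10 genes. Fbn2, Mfap4 and Mfap5 had no entry, while Ltbp1 had 2 and Ltbp4 had 3. Each sequence below is 200 bases long, runs from 250 to 51 bases before the RefSeq start, lies outside the GENCODE gene, and had 1 exact match on the gene's chromosome of GRCm39, at chr17:75312274-75312473 for Ltbp1, chr12:84923316-84923515 for Ltbp2 and chr19:5790678-5790877 for Ltbp3. Each is written 5′ to 3′ on the strand of its gene. Capitals mark, on either strand, the SMAD half-site CAGAC and the GC box, whose letters are GGGCGG.
Ltbp1: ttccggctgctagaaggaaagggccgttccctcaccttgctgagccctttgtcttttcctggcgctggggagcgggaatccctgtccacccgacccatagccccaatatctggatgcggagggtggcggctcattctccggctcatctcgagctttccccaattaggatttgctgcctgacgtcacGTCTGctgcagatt
Ltbp2: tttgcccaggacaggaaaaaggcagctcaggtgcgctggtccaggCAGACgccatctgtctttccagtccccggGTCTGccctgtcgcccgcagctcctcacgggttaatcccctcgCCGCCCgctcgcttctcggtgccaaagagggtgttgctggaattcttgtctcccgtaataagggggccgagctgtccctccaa
Ltbp3: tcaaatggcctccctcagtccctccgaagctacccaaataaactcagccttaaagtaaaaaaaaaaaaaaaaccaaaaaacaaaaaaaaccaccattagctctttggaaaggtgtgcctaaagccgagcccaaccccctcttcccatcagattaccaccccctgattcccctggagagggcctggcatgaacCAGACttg
The Ltbp2 window held 2 matches of the SMAD half-site and 1 of the GC box and had a GC content of 62.0%. The Ltbp1 and Ltbp3 windows each held 1 match of the half-site and none of the GC box, with GC contents of 58.5% and 46.5%. The other Ltbp1 entry, at chr17:75485526-75485725 inside the annotated gene, held 2 matches of the half-site, as many as the Ltbp2 window, and none of the GC box. The 3 Ltbp4 entries, which lie wholly or partly inside the gene, held 1, 3 and 2 matches of the GC box and none of the half-site. The AP-1 motif TGANTCA (N is any base) and the E-box CACGTG were in none of the 3 windows, on either strand. The 50 bases next to the start were not searched. Among the 32851 promoter windows of the same length in the table, 35.8% held the SMAD half-site and 24.6% the GC box. The motif TGANTCA was in 5.57%, and the letters CACGTG were in 4.34%. A match of these letters is a description of the window, and no binding was measured.

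To examine whether microfibril and LTBP transcripts differed between the genotypes, each gene was read from the fit across all genes. Ltbp2, Mfap4 and Ltbp3 were higher in DBA/2J, so 3 of the 10 genes were called higher and 0 lower by edgeR. All 10 had a log2 fold change above 0 (Ltbp4 turned to below 0 with upper quartile or total-count scaling), with a median of 0.73, beside a median of -0.02 over all genes tested, of which 9350 were above 0. With the unadjusted p in place of the adjusted, 7 of the 10 passed, all higher, a rule that 4.2% of all genes passed higher and 4.48% lower. In 8 of the 10 every DBA/2J pool lay above both Gpnmb+ pools, an arrangement found in 17.3% of all genes tested, while 17.2% had every DBA/2J pool below. None of the 10 had every DBA/2J pool below. DESeq2 with ashr moderation, which called 2.27% of genes higher and 1.46% lower, called 5 of the 10, adding Fbn1 and Adamtsl2. DESeq2's Wald test without moderation, which called 2.76% of genes higher and 1.94% lower, called 7, adding Ltbp1 and Mfap2 as well. Without DBA/2J pool 1, DBA/2J pool 2 or Gpnmb+ pool 2 edgeR called 0 of the 10, without DBA/2J pool 3 it called 1 (Ltbp2), and without Gpnmb+ pool 1 it called 3 (Ltbp2, Mfap4 and Adamtsl2). Over the whole table the same fits called 6, 1, 2, 17 and 217 genes, against 157 with all pools.

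**Figure D1:**
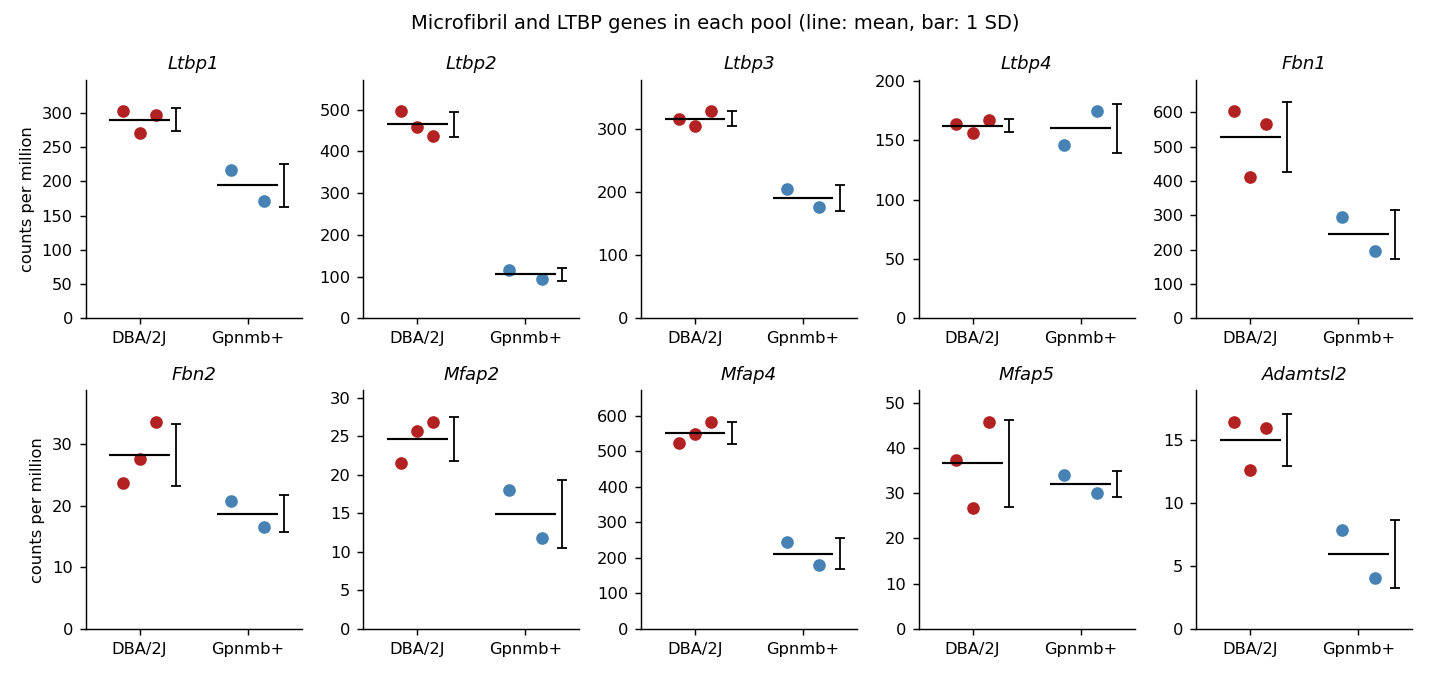
Level of each of the 10 genes in CPM (vertical axes from 0, each gene on its own scale) in the 3 DBA/2J pools (red) and 2 Gpnmb+ pools (blue). Points are pools, lines are means and bars are 1 SD. Groups overlap for Ltbp4 and Mfap5 and are separate for the other 8 genes.

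Ltbp2 showed the largest difference of the 10 genes. Its protein binds fibrillin-1 but, unlike the other LTBPs, does not form a latent complex with TGF-beta, and recessive mutations of human LTBP2 cause primary congenital glaucoma and lens disorders. Reads on Ltbp2 numbered 22104, 19714 and 19535 in DBA/2J pools 1 to 3, against 5887 and 4622 in Gpnmb+ pools 1 and 2. This corresponded to 497, 459 and 438 CPM in DBA/2J and 116 and 94.5 CPM in Gpnmb+. The lowest DBA/2J pool was thus several times the highest Gpnmb+ pool, and the groups did not overlap. The log2 fold change was 2.14 (SE 0.13, 95% confidence interval 1.82 to 2.46, edgeR adjusted p = 0.0145), or 4.42-fold. Its call was lost without DBA/2J pool 1 (adjusted p = 0.0706), DBA/2J pool 2 (0.0775) or Gpnmb+ pool 2 (0.0694) in edgeR, and its log2 fold change stayed between 2.00 and 2.30 as each pool was left out. Over all its alternatives the adjusted p ran from 9e-50 to 0.0775. Exons of Ltbp2 overlap the antisense gene D030025P21Rik over 764 bases, and the strand setting of the counting is not given in the sources used here. Opposite-strand overlaps of 90 to 2442 bases were also present in Ltbp3, Ltbp4, Fbn1, Fbn2, Mfap4 and Adamtsl2, and absent from Ltbp1, Mfap2 and Mfap5.

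Ltbp3, whose protein carries latent TGF-beta, was higher by a smaller margin. Its counts were 14006, 13101 and 14659 in DBA/2J against 10398 and 8607 in Gpnmb+, or 315, 305 and 329 CPM against 205 and 176 CPM. The groups did not overlap. The log2 fold change was 0.73 (SE 0.10, 95% confidence interval 0.48 to 0.98, edgeR adjusted p = 0.0479). This call lay close to the threshold. With the replicate number as a block, in which DBA/2J pool 3 has no Gpnmb+ partner, it was lost (log2 fold change 0.71, edgeR adjusted p = 0.0528). It was lost under upper quartile scaling (adjusted p = 0.0557) and total counts (0.0582) and whenever any 1 of the 5 pools was left out in edgeR (0.0557 to 0.186), where the log2 fold change ran from 0.63 to 0.85, and the adjusted p ran from 2.77e-08 to 0.186 over all its alternatives.

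Ltbp1, the best-characterized carrier of latent TGF-beta, had 303, 271 and 297 CPM in DBA/2J and 216 and 172 CPM in Gpnmb+. The groups were separate, but the log2 fold change of 0.58 (SE 0.13, 95% confidence interval 0.28 to 0.89) did not pass the test (edgeR adjusted p = 0.109). DESeq2's Wald test passed it (adjusted p = 0.00169), and its adjusted p ran from 0.00169 to 0.314 over its alternatives. Ltbp4, which binds latent TGF-beta1 and fibulins and is needed for elastic fiber assembly, had 164, 156 and 167 CPM in DBA/2J and 146 and 175 CPM in Gpnmb+. The DBA/2J pools fell between the Gpnmb+ pools. Its log2 fold change was 0.02 (SE 0.10, edgeR adjusted p = 0.953), the 95% confidence interval ran from -0.24 to 0.27, and its sign changed with the scaling and with the pool left out (-0.11 to 0.16). The interval of Ltbp4 did not reach that of Ltbp2 or Ltbp3.

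**Figure D2:**
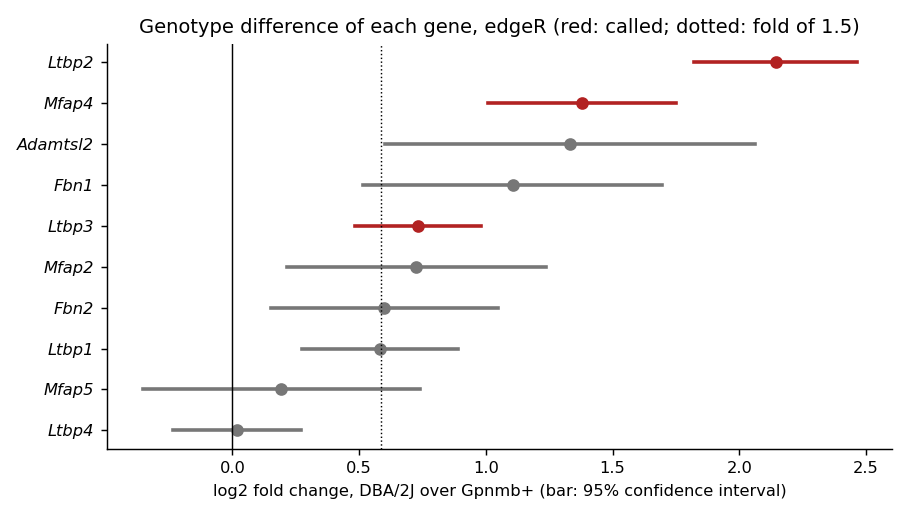
Log2 fold change of DBA/2J over Gpnmb+ (horizontal axis) for each gene with its 95% confidence interval from edgeR. Red marks the 3 called genes, the dotted line a fold of 1.5. Intervals of Ltbp4 and Mfap5 span 0, and that of Ltbp2 starts at 1.82.

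The LTBP genes did not shift in proportion, so the makeup of the summed LTBP level was compared inside each pool. Levels per length were used, in CPM per kb of the exons of each gene. Ltbp2 made up 42.1%, 41.7% and 38.7% of the summed level in DBA/2J, against 18.8% and 16.6% for the Gpnmb+ pools. Its mean share in DBA/2J was 40.8% ± 1.87 (SD, n = 3), against 17.7% ± 1.54 (SD, n = 2) in Gpnmb+, a difference of 23.1 percentage points (exact two-sided permutation p = 0.2, the smallest that 3 pools against 2 can give). Ltbp4 had the opposite arrangement, with 15.1%, 15.4% and 16.0% in DBA/2J and 25.6% and 33.4% in Gpnmb+ (exact permutation p = 0.2). The shares of Ltbp1 were 18.7% to 20.0% in DBA/2J and 23.0% and 26.7% in Gpnmb+. Those of Ltbp3 were 23.3% to 25.3% and 27.0% and 29.0%. The summed LTBP level was 139 ± 4.89 CPM per kb (SD, n = 3) for DBA/2J and 72.5 ± 4.20 (SD, n = 2) for Gpnmb+ (exact permutation p = 0.2). Shares of 1 total are not independent of each other. With the length of the canonical transcript instead, Ltbp2 made up 32.1% ± 1.68 and 12.96% ± 1.09 of the sum.

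**Figure D3:**
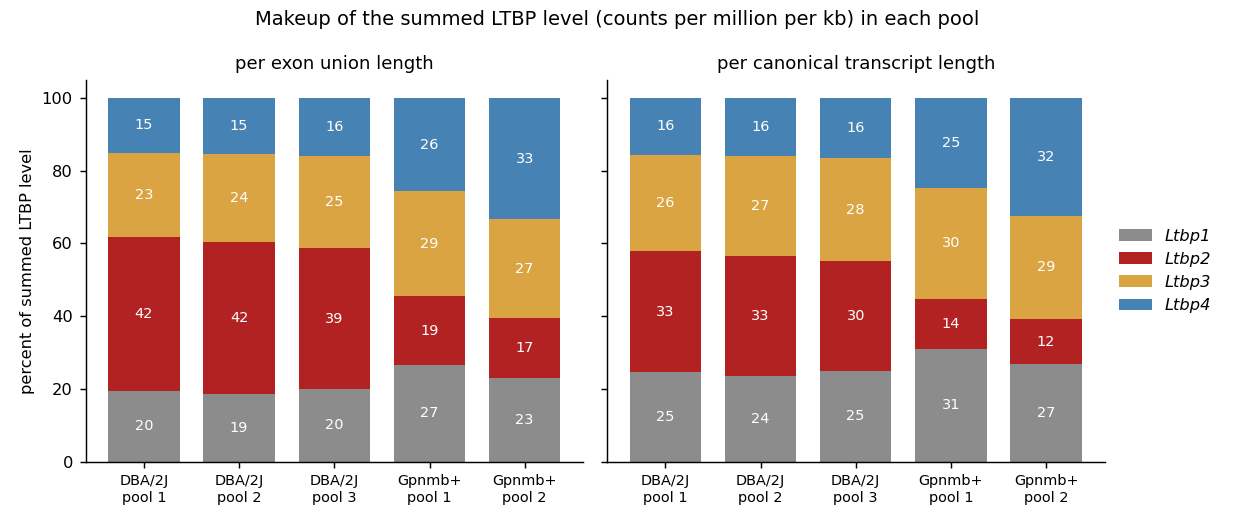
Percent of the summed LTBP level contributed by each LTBP gene in each pool (stacked bars, level in CPM per kb), with exon union length on the left and canonical transcript length on the right. By either length Ltbp2 is larger and Ltbp4 smaller in the 3 DBA/2J pools than in the 2 Gpnmb+ pools.

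In all, 5 ratios between genes of the same pool were compared, which removes the library scaling. The log2 ratio of Ltbp4 to Ltbp2 (per kb) was -1.48, -1.44 and -1.27 in DBA/2J, against 0.45 and 1.01 for the Gpnmb+ pools, and the means differed by -2.12. The ratio of Ltbp1 to Ltbp2 was -1.07 ± 0.10 (SD, n = 3) for DBA/2J and 0.49 ± 0.02 (SD, n = 2) for Gpnmb+. The ratio of Ltbp3 to Ltbp2 was -0.75 ± 0.13 (SD, n = 3) and 0.66 ± 0.05 (SD, n = 2). In all 3 ratios the order of the genes reversed, Ltbp2 being the more abundant in every DBA/2J pool and the less abundant in every Gpnmb+ pool. With the canonical length the same reversal held for the group means. The ratio of Fbn2 to Fbn1 was -4.91 ± 0.41 (SD, n = 3) and -4.39 ± 0.19 (SD, n = 2), and that of Mfap5 to Mfap2 was -0.45 ± 0.42 (SD, n = 3) and 0.15 ± 0.31 (SD, n = 2). Each of the 5 gave an exact two-sided permutation p = 0.2, also after Benjamini-Hochberg adjustment over the 5, and no smaller p was possible.

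Of the fibrillins, Fbn1 encodes the main structural protein of adult microfibrils and is the gene mutated in Marfan syndrome. Fbn1 (chr2:125142514-125349913, minus strand) had 604, 411 and 566 CPM in DBA/2J and 295 and 195 CPM in Gpnmb+. Both groups were widely spread, with DBA/2J pool 2 and Gpnmb+ pool 2 lowest, but they did not overlap. The log2 fold change of 1.11 (SE 0.24, 95% confidence interval 0.52 to 1.70) missed the threshold in edgeR (adjusted p = 0.110), whereas DESeq2 gave an adjusted p of 0.000289. The adjusted p of Fbn1 ran from 0.000289 to 0.314 over its alternatives. DBA/2J pool 3 has no Gpnmb+ pool of its number. With the replicate number as a block, which takes that pool out of the comparison, edgeR called Fbn1 (log2 fold change 1.06, adjusted p = 0.0274). Its exons overlap the antisense gene Gm9913 over 2442 bases. Fbn2 (chr18:58141695-58343645, minus strand), the fibrillin made chiefly during development, was far less abundant, with 23.7, 27.5 and 33.6 CPM in DBA/2J and 20.8 and 16.5 CPM in Gpnmb+. Its log2 fold change was 0.60 (SE 0.18, edgeR adjusted p = 0.205). Fbn2 had 1.44 ± 0.26 CPM per kb (SD, n = 3) in DBA/2J beside 43.5 ± 8.42 (SD, n = 3) for Fbn1.

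The microfibril-associated genes followed different courses. Mfap4, a fibrinogen-related glycoprotein that binds fibrillin and elastin, was called. Mfap4 (chr11:61376212-61379727, plus strand) was counted 23266, 23563 and 26040 times in DBA/2J against 12351 and 8823 times in Gpnmb+, or 523.3, 549 and 584 CPM against 243 and 180 CPM. Every DBA/2J pool was more than double either Gpnmb+ pool. The log2 fold change was 1.38 (SE 0.15, 95% confidence interval 1.01 to 1.75, edgeR adjusted p = 0.0310). Leaving out any DBA/2J pool or Gpnmb+ pool 2 ended the call (edgeR adjusted p = 0.102 to 0.117), with log2 fold changes of 1.18 to 1.62 over the 5 pools left out in turn, and the adjusted p ran from 1.37e-14 to 0.117 over its alternatives. Mfap2, which encodes MAGP-1, a small glycoprotein of most microfibrils, is on chr4:140737729-140743295 (plus strand). It had 21.5, 25.7 and 26.9 CPM in DBA/2J and 18.1 and 11.8 CPM in Gpnmb+, and its log2 fold change of 0.73 (SE 0.21) did not pass (edgeR adjusted p = 0.182), whereas it passed in DESeq2's Wald test (adjusted p = 0.0282, from 0.0282 to 0.432 over its alternatives). Mfap5, which encodes the related MAGP-2, is on chr6:122470878-122508875 (plus strand), the chromosome that also carries Gpnmb. Its levels overlapped, at 37.3, 26.7 and 45.8 CPM in DBA/2J and 34.1 and 30.0 CPM in Gpnmb+. Its log2 fold change was 0.19 (SE 0.22, 95% confidence interval -0.35 to 0.74, edgeR adjusted p = 0.730), and it fell below 0 in 2 of its 15 alternatives.

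Adamtsl2 (chr2:26949885-26998993, plus strand), a secreted protein without protease activity whose human gene is mutated in geleophysic dysplasia, was counted 732, 542 and 710 times in DBA/2J against 398 and 199 times in Gpnmb+. Those were 16.5, 12.6 and 15.9 CPM against 7.84 and 4.07 CPM, and the groups were separate. The log2 fold change of 1.33 (SE 0.30, 95% confidence interval 0.60 to 2.06) did not pass in edgeR (adjusted p = 0.115). Without Gpnmb+ pool 1 it passed at a log2 fold change of 1.89 (adjusted p = 0.0434), and DESeq2 also passed it (0.000777), its adjusted p running from 0.000777 to 0.272 over its alternatives.

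Per length of exon, Mfap4 was the most abundant of the 10 genes in both genotypes, at 235 ± 12.9 CPM per kb (SD, n = 3) for DBA/2J and 90.1 ± 19.0 (SD, n = 2) for Gpnmb+. The order then differed. In DBA/2J it was followed by Ltbp2 (56.8 CPM per kb), Fbn1 (43.5), Ltbp3 (33.7), Ltbp1 (27.0), Ltbp4 (21.5), Mfap2 (7.06), Mfap5 (5.29), Adamtsl2 (1.69) and Fbn2 (1.44). The ranges over pools overlapped between Fbn1 and Ltbp3, between Mfap2 and Mfap5, and between Adamtsl2 and Fbn2, so those neighbors were not told apart. In Gpnmb+, Ltbp4 (21.3 CPM per kb), Ltbp3 (20.3), Fbn1 (20.2) and Ltbp1 (18.1) had overlapping ranges, Ltbp2 came after them at 12.9, and Mfap5 (4.63), Mfap2 (4.27), Fbn2 (0.951) and Adamtsl2 (0.670) were lowest. Neighbors overlapped again within the pairs Mfap5 and Mfap2, and Fbn2 and Adamtsl2. Ltbp2 was thus at rank 2 in DBA/2J and rank 6 in Gpnmb+, by either length. The places of Fbn1, Ltbp1, Ltbp3 and Ltbp4 among themselves, and that of Mfap2 against Mfap5 in Gpnmb+, changed with the length used.

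The levels also differed between pools of 1 genotype. In 9 of the 10 genes, all but Ltbp4, Gpnmb+ pool 1 was above Gpnmb+ pool 2, with a median log2 difference of 0.33. Markers of the nonpigmented ciliary epithelium, the tissue that makes zonular microfibrils, were examined beside them. Of 11 such markers, 10 had a log2 fold change above 0 (median 1.66), 3 were called higher by edgeR and 10 by DESeq2 with ashr. In 10 of them every DBA/2J pool was above both Gpnmb+ pools. Their summed level was 1269 to 1550 CPM in DBA/2J and 527 and 325 CPM in Gpnmb+ pools 1 and 2, and none was at 0. The most abundant were Optc, which encodes opticin (524 to 684 CPM in DBA/2J, 172 and 78.2 CPM in Gpnmb+), and Aqp4, a water channel (152 to 187 CPM, 70.4 and 32.02 CPM). In 9 of the 11 markers Gpnmb+ pool 1 was likewise above pool 2. Within DBA/2J the order differed, since pool 2 was lowest for 6 of the 10 genes but for 2 of the 11 markers. How far the amount of ciliary epithelium in a pool set the level of the microfibril and LTBP genes was not tested.

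**Figure D4:**
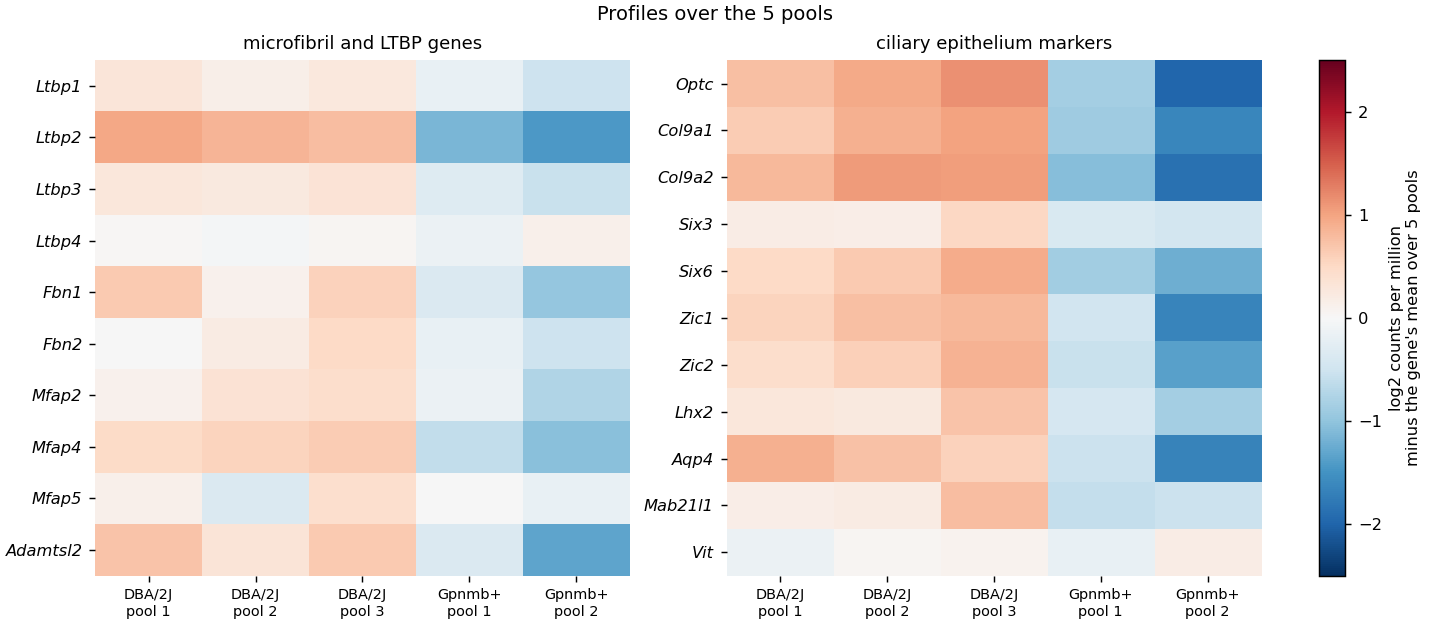
Log2 CPM of each gene minus its mean over the 5 pools (color) for the 10 microfibril and LTBP genes on the left and 11 ciliary epithelium markers on the right, with pools as columns. Gpnmb+ pool 2 is lowest in most rows of both panels, and Ltbp4, Mfap5 and Vit vary little between the genotypes.

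Other marker lists moved less or the other way. Of the 7 trabecular meshwork markers tested, 6 had a log2 fold change below 0 (median -0.82) and 2 were called lower, with a summed level of 1423 to 1557 CPM in DBA/2J and 1885 and 1897 CPM in Gpnmb+. Mgp was the most abundant of them in both genotypes (log2 fold change -0.06). Next came Pdpn in DBA/2J and Myoc in Gpnmb+. Pdpn had a mean of 379 CPM in DBA/2J and 278 CPM in Gpnmb+ (0.45, edgeR adjusted p = 0.159). Myoc had 233 and 485 CPM (-1.06, edgeR adjusted p = 0.165). The median log2 fold change was -0.16 over 5 keratocyte markers (1 called lower), -0.13 over 5 corneal epithelium markers, 0.21 over 7 sclera and tendon markers, -0.07 over 6 smooth muscle and pericyte markers, 0.13 over 5 endothelial markers and 0.28 over 5 macrophage markers. It was -0.07 over 5 pigment cell markers (1 called lower), -1.23 over 5 Schwann cell markers (2 called lower) and 1.16 over 4 skeletal muscle markers. No gene of these lists was at 0 in all pools, and the part of these tissues in the results was not tested.

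The profile of Ltbp2 over the 5 pools was compared with all 19712 other genes tested by Euclidean distance between mean-centered log2 CPM. The 5 nearest were Gm6647 (distance 0.157), Mlc1 (0.232), which encodes a membrane protein of glial cell junctions, Gm15475 (0.322), St8sia1 (0.331), a ganglioside sialyltransferase, and Fezf2 (0.388), a transcription factor. Mlc1 was counted 2533, 2737 and 2585 times in DBA/2J against 772 and 645 times in Gpnmb+. Among the other microfibril and LTBP genes, Mfap4 was nearest to Ltbp2 at rank 94 and Adamtsl2 was at rank 125, while Ltbp4 was at rank 8221. With DESeq2 scaling and a smaller prior count 4 of the 5 kept a rank of 5 or less, and Gm15475, the least abundant, moved to rank 10. These genes were picked for their likeness, so no test was made.

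Genes of the elastic fiber and TGF-beta pathways were then read from the same fit. Of 23 elastic fiber partners, 2 were called higher and 0 lower (median log2 fold change 0.30), while DESeq2 with ashr called 6, all higher. Vcan, the proteoglycan versican that binds fibrillin, had 250, 248 and 248 CPM in DBA/2J and 97.9 and 66.6 CPM in Gpnmb+, giving a log2 fold change of 1.60 (SE 0.17, edgeR adjusted p = 0.0294). Vtn, the adhesive glycoprotein vitronectin, had a log2 fold change of 0.77 (edgeR adjusted p = 0.0382). The most abundant partners, the small proteoglycans Dcn (-0.44, adjusted p = 0.185) and Bgn (0.47, adjusted p = 0.193), were not called by edgeR. Fbln2, the fibulin with the largest log2 fold change among uncalled partners (1.34), had an edgeR adjusted p of 0.0858.

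Among 11 ADAMTS and ADAMTS-like genes tied to fibrillin, 0 were called higher and 1 lower, and the median log2 fold change was -0.23. DESeq2 with ashr called 2, both lower. The gene called by edgeR was Adamtsl3, at 29.0, 33.4 and 33.7 CPM in DBA/2J and 56.7 and 56.1 CPM in Gpnmb+. Its log2 fold change was -0.82 (SE 0.10, edgeR adjusted p = 0.0350). Adamtsl2 and Adamtsl3 thus lay on opposite sides of 0, although Adamtsl2 did not pass the test. Adamts2, the procollagen protease, and Adamtsl1 had the highest mean count over the 5 pools among the rest, with log2 fold changes of 0.45 (adjusted p = 0.192) and 0.55 (adjusted p = 0.138) in edgeR. Adamts19 had the largest difference, -1.43 (edgeR adjusted p = 0.103), at a low level of 0.517 to 0.862 CPM in DBA/2J and 1.73 and 2.13 CPM in Gpnmb+. Of 4 further genes that carry an MFAP symbol, none was called in either direction by edgeR, with the unadjusted p or by DESeq2 with ashr. Mfap3l (-0.42) and Mfap1a (-0.10) were the most abundant of them.

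**Figure D5:**
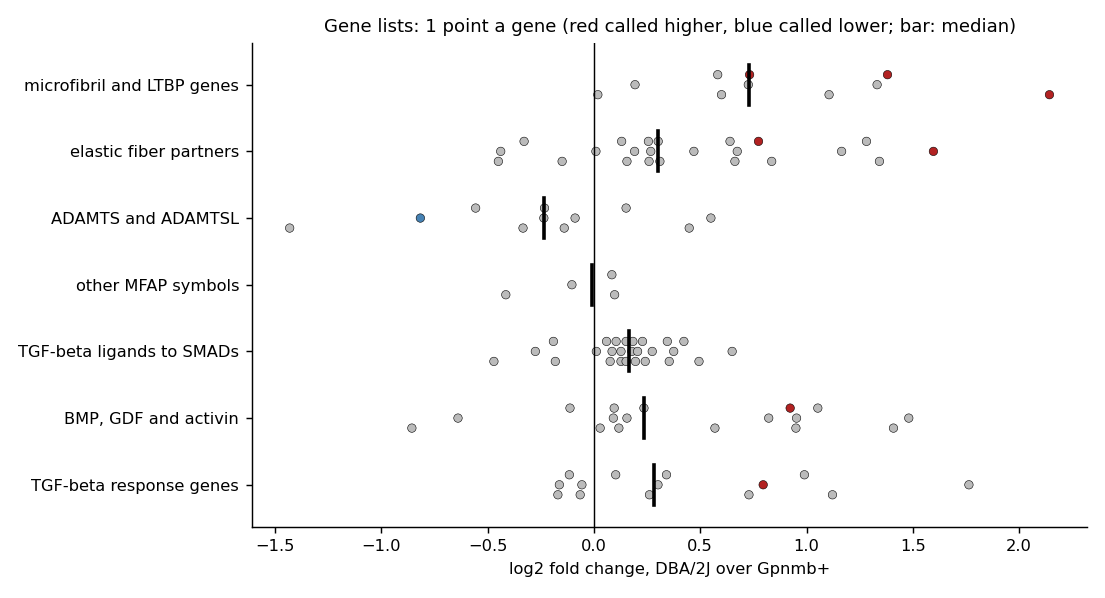
Log2 fold change of DBA/2J over Gpnmb+ (horizontal axis) for every tested gene of each list, with 1 point per gene, red for genes called higher, blue for genes called lower and gray for the rest. Vertical bars are list medians, which run from -0.23 for the ADAMTS and ADAMTS-like genes to 0.73 for the microfibril and LTBP genes.

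Of 26 genes for TGF-beta ligands, their activation, receptors and SMADs, edgeR called 0, while 1 (Tgfb2) passed with the unadjusted p, beside the 4.2% of all genes above, and DESeq2 with ashr called 0. DESeq2's Wald test called 1, again Tgfb2, and edgeR called 1 gene without Gpnmb+ pool 1 and 0 without any other pool. The median log2 fold change was 0.16. The most abundant were Thbs1 (thrombospondin-1, an activator of latent TGF-beta) at 0.27 and the integrin gene Itgb1 at 0.20, with edgeR adjusted p-values of 0.630 and 0.465. Tgfb2, the ligand best known in aqueous humor, had the largest difference, with 270, 284 and 278 CPM in DBA/2J and 203 and 150 CPM in Gpnmb+. Its log2 fold change was 0.65 (SE 0.14, edgeR adjusted p = 0.108). The other ligands, named here after their values were seen, were Tgfb1 (0.24, adjusted p = 0.345) and Tgfb3 (-0.28, adjusted p = 0.232), neither of which edgeR called.

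Fibrillin microfibrils also bind bone morphogenetic proteins (BMPs). Of 17 BMP, GDF and activin ligands and receptors, 1 was called higher and 0 lower, with a median log2 fold change of 0.23, while DESeq2 with ashr called 5, all higher. The gene called by edgeR was Bmp4, at 59.4, 60.1 and 64.1 CPM in DBA/2J and 35.6 and 29.0 CPM in Gpnmb+ (log2 fold change 0.92, SE 0.11, edgeR adjusted p = 0.0379). Gdf6 had the largest difference, 1.48 (edgeR adjusted p = 0.100), at 1.14 to 1.73 CPM in DBA/2J. The abundant receptors Bmpr2 (0.15, adjusted p = 0.454) and Bmpr1a (0.10, adjusted p = 0.637) were not called by edgeR.

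Of 14 genes known to respond to TGF-beta, 1 was called higher and 0 lower, and the median log2 fold change was 0.28. DESeq2 with ashr called 4, all higher, which were Pmepa1 and the collagen genes Col1a1, Col1a2 and Col3a1. The gene called by edgeR was Pmepa1, an inhibitor of TGF-beta signaling, with 176, 153 and 166.5 CPM in DBA/2J and 99.2 and 91.1 CPM in Gpnmb+. The groups did not overlap, and the log2 fold change was 0.80 (SE 0.10, edgeR adjusted p = 0.0379). Ccn1, a matricellular gene, had the largest difference, 1.76 (SE 0.96, edgeR adjusted p = 0.431), which rested on DBA/2J pool 1, at 829 CPM, while the other DBA/2J pools had 118.5 and 109 CPM and the Gpnmb+ pools 109 and 98.6 CPM. Col1a2 (0.73, adjusted p = 0.111) and Col3a1 (1.12, adjusted p = 0.221), the most abundant of the list, did not pass in edgeR, and 5 of the 14 genes had log2 fold changes below 0. With a DBA/2J pool or Gpnmb+ pool 2 left out, edgeR called 0 of the genes of the elastic fiber, ADAMTS, BMP and response lists. Without Gpnmb+ pool 1 it called 0 of the ADAMTS and response lists, so the calls of Adamtsl3 and Pmepa1 were lost there too.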

How the data were processed

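RNA of 3 DBA/2J and 2 Gpnmb+ pools was sequenced as 100 bp pairs from poly(A) libraries. Per the paper's methods and the submitters' notes, fastp trimming and STAR alignment to GRCm39 were run by the authors, who deposited unnormalized counts of reads with a single alignment, summed per gene. The counter and strand setting are not given in the sources used here, so overlapping and antisense genes are uncertain. Names, positions and lengths came from GENCODE release M39 (56323 of 56941 identifiers). The 10 genes and all lists were chosen with earlier results of these data known.

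A gene with 10 or more counts in 1 pool or more entered edgeR 4.0.16's quasi-likelihood test (TMM scaling, no covariate) in R 4.3.3. Adjusted p-values are Benjamini-Hochberg over all 19713 genes. Calls needed an adjusted p no larger than 0.05 together with a 1.5-fold change. DESeq2 1.42.0, ashr 2.2.63, limma 3.58.1, other scalings and filters and leaving out each pool were alternatives. Levels per length used all exons of a gene or the canonical transcript. Exact permutation tests used scipy 1.17.1. The common coefficient of variation was 20.7%. Tested on simulated data, edgeR recovered 93.5% of 200 changed genes among 19210, with 3 false calls. The simulated log2 changes were 1.5 or 2 in size, up or down, in well-counted genes only. Of the 10 genes only Ltbp2 differed by as much, so this recovery does not apply to the smaller differences of the others. Named in each list were called genes, the 2 most abundant others and the largest log2 fold change. Chil1 was not matched by symbol. Totals of 43900661 to 49837758 counts per pool set the counting error, which does not cover variation between mice. A response gene is left out of its list and not reported here.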

Additional observations from a re-analysis of the deposited data

How the results depend on the processing

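The number of genes called over the whole table, 157 in edgeR, was 927 with DESeq2's Wald test, 734 with ashr moderation, 360 without the count minimum and 1710 with unadjusted p-values, and ran from 1 to 217 as each pool was left out. Of the 10 microfibril and LTBP genes, 3 were called in edgeR, 7 with DESeq2's Wald test, 5 with ashr, 7 with unadjusted p-values, and 0 to 3 with a pool left out. With a pool left out fewer samples remain, and where 1 Gpnmb+ pool remained it was assumed to vary like the DBA/2J pools. The log2 fold changes of the 3 called genes kept their sign in all 15 alternatives. The difference in the Ltbp2 share of the LTBP level, 23.1 percentage points, was 19.1 with the canonical transcript length and 22.0 to 24.2 with a pool left out. No scaling shifted the median log2 fold change of all genes by more than 0.04.

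With the replicate block, 220 genes and 3 of the 10 were called, and 4 of the 14 TGF-beta response genes against 1 without it. Ltbp3 was lost (log2 fold change 0.71, adjusted p = 0.0528) and Fbn1 gained (1.06, adjusted p = 0.0274). The numbers share no stated animal or day, so they were not taken to pair the samples. Same-numbered pools correlated at 0.279 and 0.254 in their deviations from the group means. With only 2 Gpnmb+ pools, the deviations of 1 are those of the other with the sign turned. The correlations therefore cannot decide whether the pools are paired. In the block fit DBA/2J pool 3 has no Gpnmb+ pool of its number, so it does not enter the genotype difference. With that pool left out and no block, the log2 fold change was 0.70 for Ltbp3 and 1.05 for Fbn1. What else changed the calls under the block was not tested. The effect of depth on the calls was not tested.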
